A study of Mus musculus with 18 samples.

Results

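Angiotensin II (AngII) infusion was examined here as a single exposure, by setting the 12 cardiac libraries of both infused groups against the 6 libraries of saline mice. The members were taken from the treatment label, and the 12 infused libraries were 6 labelled AngII and 6 labelled AngII with ethoxysanguinarine (AngII+ETH), out of 18 in the series. All mice were WT C57BL/6 and were sampled after 28 days. The AngII group received 500 ng per kg per min of the peptide, the AngII+ETH group the same dose with 10 mg per kg per day of ethoxysanguinarine, a benzophenanthridine alkaloid of plant origin, and the saline group neither agent. Age, sex and the part of the heart taken are not given in the labels. The design text speaks of 6 groups but lists these 3. The comparison asks how cardiac RNA differed after infusion, with or without ethoxysanguinarine, and the genes the results turn on are given for AngII and AngII+ETH separately as well as pooled. Whether the 18 libraries are 18 animals is not labelled, so the p-values may reflect technical spread. Transcripts are listed differently in the AngII+ETH files and in those of AngII and saline, and a difference in processing cannot be told apart from ethoxysanguinarine.

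AngII is the effector peptide of the renin-angiotensin system. It constricts arteries and stimulates aldosterone release, and through its receptors on cardiac myocytes, fibroblasts and vascular cells it is known to drive hypertrophy, fibrosis and inflammation in the heart. A loaded myocyte typically re-expresses fetal genes such as Nppa, Nppb and Acta1, enlarges its Z-discs and costamere anchors, and shifts its fuel use from fatty acids towards glucose. Fuel choice is set in part by the PPAR nuclear receptors, which transcribe Angptl4, Pdk4 and Ucp3, and by the glucose sensor MondoA/ChREBP, which transcribes Txnip.

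Values were per transcript, summed per gene, and are in FPKM, that is, fragments per transcript length and library size, a unit inferred from the values. The files give no read counts, so the depth behind each value is unknown here. Each fold change is a difference of log2(FPKM + 1), infused minus saline, and understates changes of low genes. The libraries stood apart in which tissue they held. Myl7 encodes the myosin light chain of the atria and was listed at 0 in AngII replicate 3, AngII+ETH replicate 4 and Saline replicate 5, and Myl2, the ventricular light chain, was under 10 FPKM in AngII replicate 5 and Saline replicate 6. These 5 libraries are called poor in Myl7 or Myl2. The chamber level was the mean log2(FPKM + 1) of the atrial markers Myl7, Myl4, Sln and Bmp10 minus that of the ventricular markers Myl2, Myl3 and Irx4. Among libraries with Myl7 above 0, Bmp10 lay at 0.0324 to 381 FPKM in the infused ones and 18.1 to 868 FPKM in the saline ones. Which atrial tissue each library held was not tested. The chamber level was -1.03 ± 4.32 in the infused libraries (SD, n = 12) and 1.24 ± 5.45 in the saline libraries (SD, n = 6). The difference was -2.27, with an exact two-sided permutation p of 0.356 (also 0.356 adjusted over the 2 marker levels). The adipocyte marker level, the mean log2(FPKM + 1) of Adipoq, Retn, Cidec and Plin1, was 1.05 ± 1.04 in the infused libraries (SD, n = 12) and 3.39 ± 2.50 in the saline libraries (SD, n = 6). That difference of -2.35 log2 units had an exact two-sided permutation p of 0.0101 (adjusted 0.0201). Adipoq, the adipocyte hormone adiponectin, reached at most 20.4 FPKM in an infused library, against 105 FPKM in Saline replicate 4 and 168 FPKM in Saline replicate 6. Without Saline replicate 5 the chamber difference was -4.35 log2 units with an exact permutation p of 0.0499. Leaving out any other single library gave an exact permutation p of 0.237 to 0.627. Saline replicate 5 was the only saline library with Myl7 at 0, and the infused libraries with Myl7 at 0 stayed in.

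**Figure D1:**
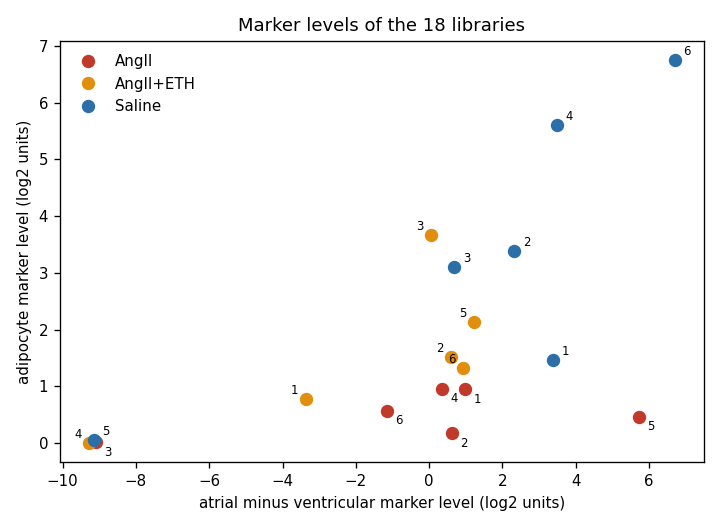
Each point is a library, numbered by replicate and coloured by group, with its atrial minus ventricular marker level on the horizontal axis and its adipocyte marker level on the vertical axis, both in log2 units. Saline replicates 4 and 6 hold the highest adipocyte marker levels, and a library of each group sits at the ventricular end on the left.

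Across all genes, few passed the test for an effect of infusion. Of 11704 genes tested, 4 (0.0342%) had a limma adjusted p under 0.05, 2 higher in the infused libraries (0.0171%) and 2 lower (0.0171%). The lower genes were Angptl4 and Txnip, both regulators of fuel handling, and the higher ones were Myl12a, a nonmuscle myosin light chain, and the pseudogene Gm9531. An unadjusted p under 0.05 was found for 1310 genes (11.2%), 515 higher (4.4%) and 795 lower (6.79%). The share of these that were higher was 39.3%, against 48.6% with median-of-ratios scaling and 51.5% after quantile normalization. The median gene lay at -0.05 on the log2 scale, and at -0.0052 and 0.00028 with those scalings. Each infused group alone against saline had 1 gene past the threshold (0.00854%), and AngII+ETH against AngII had 0 of 11704. The comparisons of AngII and of AngII+ETH with saline share the saline libraries, so their values are given side by side and are not independent.

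**Figure D2:**
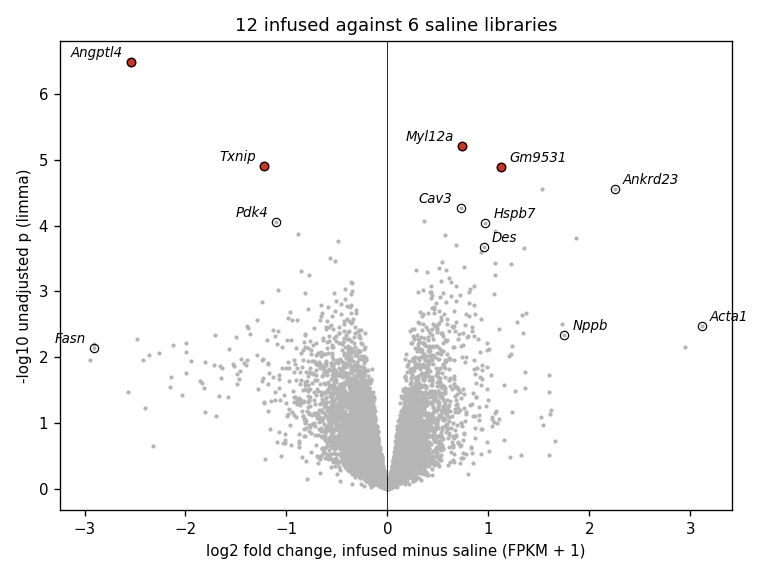
Each point is 1 of 11704 genes, with the pooled log2 fold change (infused minus saline) on the horizontal axis and the -log10 unadjusted limma p on the vertical axis. Red points are the 4 genes past the adjusted threshold, and open circles mark these 4 and some of the other genes named in the text. Among the circled genes, Acta1 has the largest log2 fold change (3.11) without passing.

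Angptl4 encodes a secreted inhibitor of lipoprotein lipase, the enzyme that releases fatty acids from circulating lipoproteins. It lay at 0.668 to 2.46 FPKM (median 1.27) in the AngII libraries, 0.631 to 1.81 (median 0.985) in the AngII+ETH libraries and 4.23 to 34.9 (median 8.83) in the saline libraries. Every infused library was below every saline library, and the infused groups overlapped each other. Angptl4 averaged 1.23 ± 0.523 FPKM in the infused libraries (SD, n = 12) and 15.3 ± 12.8 FPKM in the saline libraries (SD, n = 6). Another Angptl4 transcript is in the list of the AngII and saline files only and was left out of these sums. The gene fell in the infused libraries, with a pooled log2 fold change of -2.54 (SE 0.321, adjusted p = 0.00383 by limma). Against saline it was -2.46 (SE 0.371) in AngII and -2.63 (SE 0.371) in AngII+ETH, and AngII+ETH differed from AngII by -0.17 (95% interval -0.95 to 0.61). Saline replicates 6 and 4, which had the most Adipoq, stood highest at 34.9 and 27.9 FPKM, while the other saline libraries lay at 4.23 to 9.77 FPKM. Without replicates 4 and 6 the log2 fold change was -1.87 (adjusted p = 0.000407). With the adipocyte marker level as a covariate it was -1.97 (adjusted p = 0.123) and the call ended, as it did without the 5 libraries poor in Myl7 or Myl2, at -2.31 (adjusted p = 0.0662). In bulk tissue, fewer cells of a type and less RNA per cell cannot be told apart, and the part of adipose tissue in this difference was not tested beyond these values.

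Txnip encodes an alpha-arrestin that binds thioredoxin and holds back glucose uptake, and its transcription is known to follow glucose supply. It lay at 86.6 to 215 FPKM (median 139.8) in the AngII libraries, 95.4 to 209.9 (median 120.4) in the AngII+ETH libraries and 212 to 431 (median 328) in the saline libraries. AngII replicate 5, at 215 FPKM, was the only infused library above a saline library, Saline replicate 3 at 212 FPKM. The mean was 143 ± 45.5 FPKM in the infused libraries (SD, n = 12) and 327 ± 75.9 FPKM in the saline libraries (SD, n = 6). Txnip fell in the infused libraries, by a pooled log2 fold change of -1.22 (SE 0.204, adjusted p = 0.0375 by limma). Against saline it was -1.17 (SE 0.235) in AngII and -1.27 (SE 0.235) in AngII+ETH, with a difference of -0.11 (95% interval -0.60 to 0.39) between AngII+ETH and AngII. Its 2 most abundant transcripts had log2 fold changes of -1.21 and -1.22. Txnip kept its call with chamber and adipocyte covariates together, at -1.44 (adjusted p = 0.0152), and lost it without Saline replicates 4 and 6, at -1.20 (adjusted p = 0.324), where 4 saline libraries remained. The call was also lost with the adipocyte covariate alone, at -1.25 (adjusted p = 0.313), and without the 5 libraries poor in Myl7 or Myl2, at -1.20 (adjusted p = 0.103). Other genes of thioredoxin and glucose handling were mixed. The glycolysis genes Eno1, at -1.39 (SE 0.49), and Pfkfb3, at -1.24 (SE 0.497), fell at least as far as Txnip. Both were highest in Saline replicates 6 and 4. Arrdc4, Txn1 and Slc2a4 had smaller values. Arrdc4, the alpha-arrestin closest to Txnip in its control by glucose, had a log2 fold change of -0.18 (SE 0.131), Txn1, thioredoxin itself, -0.05 (SE 0.12), and the glucose transporter gene Slc2a4 -0.24 (SE 0.348). All of these other genes were chosen after their values were seen.

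Myl12a encodes a regulatory light chain of nonmuscle and smooth muscle myosin II, whose phosphorylation switches on actomyosin contraction. It lay at 309 to 442 FPKM (median 364) in the AngII libraries, 292 to 431 (median 335) in the AngII+ETH libraries and 174 to 282 (median 209) in the saline libraries. Every infused library was above every saline library, the nearest being AngII+ETH replicate 1 at 292 FPKM and Saline replicate 5 at 282 FPKM. Myl12a averaged 359 ± 53.3 FPKM in the infused libraries (SD, n = 12) and 215 ± 37.6 FPKM in the saline libraries (SD, n = 6). It rose in the infused libraries by 0.74 (SE 0.117, adjusted p = 0.0361 by limma). Against saline it was 0.77 (SE 0.135) in AngII and 0.70 (SE 0.135) in AngII+ETH, and AngII+ETH differed from AngII by -0.07 (95% interval -0.35 to 0.21). Myl12a has a near-identical neighbour, Myl12b, and reads shared between the pair may have been split by the authors' counting. Myl12b had a log2 fold change of -0.08 (SE 0.17). Another Myl12a transcript is listed in the AngII+ETH files only and was left out. The 4 transcripts tested singly had log2 fold changes of 0.43 to 0.81, with none past the threshold (adjusted p = 0.347 for ENSMUST00000024846), so the call rests on their sum. Without Saline replicates 4 and 6 the gene's log2 fold change was 0.69 (adjusted p = 0.277), with the adipocyte covariate 0.64 (adjusted p = 0.366), and without the 5 libraries poor in Myl7 or Myl2 0.69 (adjusted p = 0.0704), none past the threshold.

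Gm9531 is annotated as a transcribed processed pseudogene, a retrotransposed copy of a gene, so its reads may belong to its parent and its value is uncertain. It was low, at 3.04 to 4.51 FPKM (median 3.58) in the AngII libraries, 2.34 to 3.38 (median 2.55) in the AngII+ETH libraries and 0.127 to 2.84 (median 0.95) in the saline libraries. Saline replicate 3, at 2.84 FPKM, was the only saline library within the infused range. Its pooled log2 fold change was 1.13 (SE 0.188, adjusted p = 0.0375 by limma), with 1.30 (SE 0.217) in AngII and 0.95 (SE 0.217) in AngII+ETH, and a difference of -0.34 (95% interval -0.80 to 0.12) between AngII+ETH and AngII. The call ended without the 5 libraries poor in Myl7 or Myl2, at 0.99 (adjusted p = 0.167), without Saline replicates 4 and 6, at 1.05 (adjusted p = 0.324), and with the adipocyte covariate, at 1.24 (adjusted p = 0.195).

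**Figure D3:**
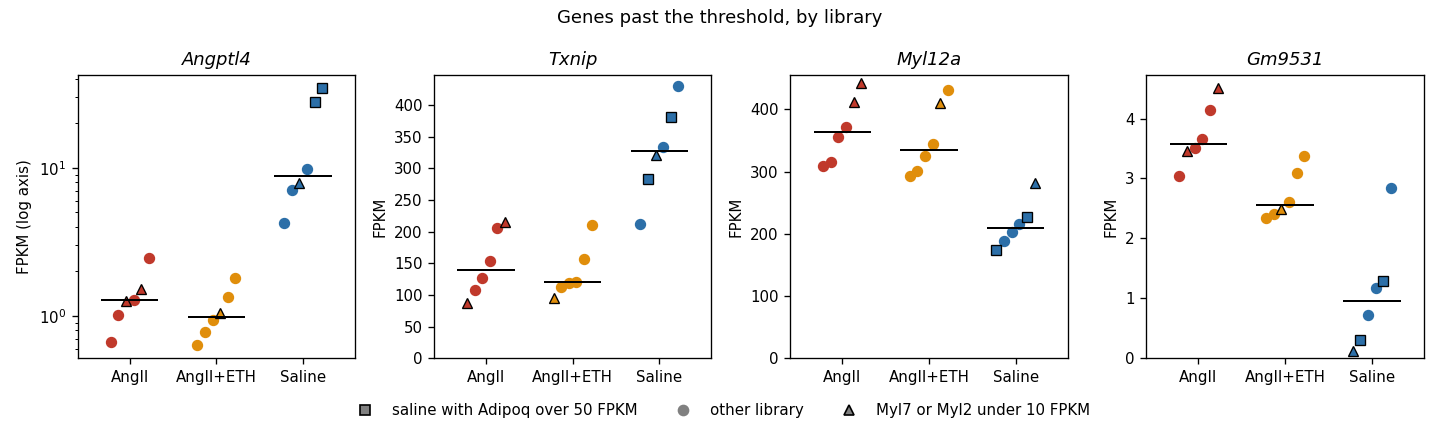
FPKM of the 4 genes past the adjusted threshold in each library, with AngII and AngII+ETH left of saline. Bars are group medians, squares are the saline libraries with Adipoq over 50 FPKM and triangles are other libraries with Myl7 or Myl2 under 10 FPKM. The axis of Angptl4 is logarithmic, and the infused and saline libraries of Angptl4 and Myl12a do not overlap.

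The table of upstream sequences held Myl12a and Txnip, 2 of the 4 genes called. The 250 bases before their annotated starts, from RefSeq (GRCm38.p6), are shown 5′ to 3′ on the strand of the gene, because these are the called genes whose promoters could be read. Capitals mark the E-box CACGTG, the nuclear receptor core site AGGTCA, the CCAAT box, the GC box GGGCGG and the carbohydrate response element core CACGAG, searched on both strands. The last was added after the Txnip sequence had been read. Myl12a lies on the minus strand of chromosome 17 (chr17:71002534-71002783) and Txnip on the plus strand of chromosome 3 (chr3:96557707-96557956).
Myl12a: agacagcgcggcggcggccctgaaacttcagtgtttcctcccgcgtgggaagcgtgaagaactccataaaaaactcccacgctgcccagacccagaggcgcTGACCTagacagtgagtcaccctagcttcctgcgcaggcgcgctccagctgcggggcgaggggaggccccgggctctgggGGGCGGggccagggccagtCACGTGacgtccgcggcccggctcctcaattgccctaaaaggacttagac
Txnip: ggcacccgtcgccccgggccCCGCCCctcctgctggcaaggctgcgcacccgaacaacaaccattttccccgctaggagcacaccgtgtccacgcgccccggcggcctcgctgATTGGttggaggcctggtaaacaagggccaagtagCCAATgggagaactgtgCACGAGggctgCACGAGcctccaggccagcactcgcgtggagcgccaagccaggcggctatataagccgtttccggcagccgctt
The Txnip promoter held CACGAG at -85 and -74 from its start, CCAAT at -102 and, reversed, at -137, and a reversed GC box at -230. The Myl12a promoter held CACGTG at -50, a GC box at -69 and AGGTCA, reversed, at -149. Of 32851 mouse promoter windows of the same length, 5.37% held CACGAG, 6.02% CACGTG, 14.0% AGGTCA, 32.7% GGGCGG and 33.8% CCAAT. The exact letters TATAAA, which were also searched, were found in neither, against 12.4% of windows. The Txnip sequence does read TATATAAG shortly before its start, a variant that this search did not cover. The search therefore does not show whether a TATA box is present. A match is a description of these letters and not a measured binding site.

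A gene could also separate the groups without passing the adjusted threshold. All 12 infused libraries lay above all 6 saline libraries for 5 genes (0.0427%), and below them for 5 genes (0.0427%). Those above, besides Myl12a, were the Src family kinase Fyn, the Popeye domain gene Popdc3, the excision repair gene Ercc1 and the linear deubiquitinase Otulin. Fyn lay at 11.4 to 14.7 FPKM (median 12.5) in the AngII libraries, 12.6 to 14.4 (median 13.1) in the AngII+ETH libraries and 8.23 to 10.9 (median 10.2) in the saline libraries. Its pooled log2 fold change of 0.36 (SE 0.0719, adjusted p = 0.108 by limma) was small beside those of the genes past the threshold. Popdc3, which encodes a muscle membrane protein that binds cAMP, lay at 8.77 to 14.8 FPKM (median 10.6) in the AngII libraries, 8.71 to 11.5 (median 9.72) in the AngII+ETH libraries and 3.55 to 8.34 (median 7.15) in the saline libraries. Its log2 fold change was 0.68 (SE 0.145, adjusted p = 0.141 by limma). The corresponding values were 0.28 (SE 0.0653, adjusted p = 0.199 by limma) for Ercc1 and 0.57 (SE 0.18, adjusted p = 0.293 by limma) for Otulin.

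Below saline in every infused library, besides Angptl4, were the FERM domain gene Epb41l5, the lysosomal membrane protein gene Gpr155, the folate transporter gene Slc46a1 and the endoplasmic reticulum shaping gene Reep5. Epb41l5 was low throughout, at 0.643 to 1.12 FPKM (median 0.802) in the AngII libraries, 0.596 to 1.02 (median 0.838) in the AngII+ETH libraries and 1.23 to 2.36 (median 1.4) in the saline libraries. Slc46a1 lay at 0.787 to 1.48 FPKM (median 1.28) in the AngII libraries, 0.756 to 1.5 (median 1.23) in the AngII+ETH libraries and 1.57 to 3.44 (median 1.82) in the saline libraries. Reep5, the most abundant of the 4, lay at 78.9 to 101 FPKM (median 96.6) in the AngII libraries, 83.5 to 102 (median 97.8) in the AngII+ETH libraries and 102 to 115 (median 106) in the saline libraries, and its separation was narrow. Pooled log2 fold changes were -0.48 (SE 0.102, adjusted p = 0.132 by limma) for Epb41l5, -0.53 (SE 0.135, adjusted p = 0.238 by limma) for Slc46a1, -0.36 (SE 0.0871, adjusted p = 0.237 by limma) for Gpr155 and -0.17 (SE 0.066, adjusted p = 0.373 by limma) for Reep5. For all of these 8 genes the 95% interval of AngII+ETH minus AngII included 0.

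Several genes, most of them of muscle, lay just outside the threshold. Ankrd23, an ankyrin repeat protein that binds titin and responds to stretch, lay at 56.9 to 281 FPKM (median 102) in the AngII libraries, 70.4 to 181 (median 124) in the AngII+ETH libraries and 5.99 to 76.9 (median 27.4) in the saline libraries. Saline replicate 5, at 76.9 FPKM, was the only saline library within the infused range, above AngII replicate 1 and AngII+ETH replicate 4. Its log2 fold change was 2.25 (SE 0.403, adjusted p = 0.055 by limma), with 2.18 (SE 0.465) in AngII and 2.32 (SE 0.465) in AngII+ETH. Without the 5 libraries poor in Myl7 or Myl2 it passed, at 2.12 (adjusted p = 0.00626), and without every library in doubt (these 5 and Saline replicate 4, an alternative chosen after seeing the data) as well, at 1.81 (adjusted p = 0.00444), but with the adipocyte covariate it was 1.45 (adjusted p = 0.612). Dock6, an activator of Rac and Cdc42 chosen after its values were seen, had 1.53 (SE 0.273, adjusted p = 0.055 by limma), with infused libraries at 6.52 to 14.1 FPKM and saline libraries at 0.464 to 10.0 FPKM. Next by p were Cav3 at 0.72 (SE 0.137, adjusted p = 0.0893 by limma), Fyn at 0.36 (SE 0.0719), Pdk4 at -1.10 (SE 0.218, adjusted p = 0.108 by limma) and Hspb7 at 0.97 (SE 0.193, adjusted p = 0.108 by limma).

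Beyond single genes, 55 lists of cardiac pathways and cell markers were counted, each against the background of 11.2% of genes with an unadjusted p under 0.05 and a median of -0.05. Of all 11704 genes 4711 were positive, and 6751 with chamber and adipocyte covariates. Without Saline replicates 4 and 6, 6410 of 11578 were positive, and without the 5 libraries poor in Myl7 or Myl2, 4661 of 11829. Sign counts of the lists shift with this background. Some lists share members, so their counts are not separate results. Ankrd23 is in the Z-disc, ankyrin repeat and hypertrophy lists, and Hspb7 in the Z-disc, heat shock and hypertrophy lists. Nrap is in the Z-disc and ankyrin repeat lists. Fatty acid synthesis, which builds palmitate from acetyl-CoA and desaturates it, had the largest share among the pathway lists. Of its 16 tested genes, all were negative, 10 had an unadjusted p under 0.05 and 0 passed the adjusted threshold. The median was -0.77, with -0.91 in AngII and -0.62 in AngII+ETH. Fasn, the fatty acid synthase, lay at 2.52 to 13.8 FPKM (median 6.26) in the AngII libraries, 2.39 to 58.2 (median 18.4) in the AngII+ETH libraries and 2.8 to 1502 (median 65.7) in the saline libraries. The highest values, 1502 and 716 FPKM, were those of Saline replicates 6 and 4, while Saline replicates 1 and 5 lay within the infused range. Scd1, the stearoyl-CoA desaturase, lay at 5.5 to 22 FPKM (median 12.9) in the AngII libraries, 5.08 to 140.0 (median 28.7) in the AngII+ETH libraries and 3.87 to 3376 (median 117) in the saline libraries. Log2 fold changes were -2.91 (SE 0.958) for Fasn, -2.94 (SE 1.04) for Scd1, -2.26 (SE 0.763) for Thrsp, a lipogenic regulator, and -1.11 (SE 0.345) for the NADPH source Me1, with adjusted p between 0.292 and 0.328. Adipocyte markers moved with this list. Of 12 adipocyte markers tested, 11 were negative and 8 had an unadjusted p under 0.05, with a median of -1.85 and summed levels of 363 to 1089 FPKM in AngII, 577 to 1045 FPKM in AngII+ETH and 358 to 4675 FPKM in saline. The defining marker Cidec was listed at 0 in AngII replicates 1, 2, 3 and 6, in AngII+ETH replicates 1, 2 and 4 and in Saline replicate 5. The part of adipose tissue in the difference of the fatty acid synthesis list was not tested apart from the values that follow. Without Saline replicates 4 and 6 the median of the fatty acid synthesis list was -0.41. With chamber and adipocyte covariates it was 0.03, where 9 of 16 genes were positive. Over all genes the median with these covariates was also 0.03, with 6751 of 11704 positive.

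PPAR target genes of lipid handling included Angptl4 as their called member, and 5 of 25 had an unadjusted p under 0.05, all lower. Pdk4, the kinase that shuts off pyruvate dehydrogenase and so spares glucose, lay at 40.3 to 107 FPKM (median 76.1) in the AngII libraries, 37.3 to 74.9 (median 57.4) in the AngII+ETH libraries and 74.8 to 190.0 (median 142) in the saline libraries. Only the lowest saline library, at 74.8 FPKM, fell within the infused range, and log2 fold changes were -0.92 (SE 0.252) in AngII and -1.28 (SE 0.252) in AngII+ETH. Pdk4 was similar without Saline replicates 4 and 6, at -1.03 (adjusted p = 0.553). Ucp3, a mitochondrial carrier induced by fatty acids, lay at 1.1 to 10.3 FPKM (median 6.93) in the AngII libraries, 2.11 to 11.1 (median 7.81) in the AngII+ETH libraries and 10.3 to 23.1 (median 15.7) in the saline libraries and had -1.24 (SE 0.331, adjusted p = 0.266 by limma). Plin2, which coats lipid droplets, lay at 5.19 to 12.5 FPKM (median 8.06) in the AngII libraries, 7.69 to 19.3 (median 8.62) in the AngII+ETH libraries and 7.28 to 238 (median 17) in the saline libraries and had -1.46 (SE 0.549, adjusted p = 0.35 by limma). Its 2 highest values were those of Saline replicates 6 and 4, at 238 and 85.5 FPKM, and the other saline libraries, at 7.28 to 20.1 FPKM, overlapped the infused ones. Ucp3 and Plin2 were named after their values were seen. In the list as a whole 20% of genes had an unadjusted p under 0.05, against 11.2% of all genes. Its sign count was close to the background, with 15 of 25 negative against 6993 of 11704, and its median was -0.17 against -0.05. The fatty acid oxidation list, which holds the enzymes of the pathway itself, had 0 of 26 genes with an unadjusted p under 0.05 and a median of -0.12. Without the 5 libraries poor in Myl7 or Myl2 that median was 0.11, with 23 of 26 positive against 4661 of 11829 of all genes. With chamber and adipocyte covariates it was 0.0049.

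Z-disc, desmin and costamere genes, which tie the contractile lattice to the cell membrane, were mostly positive. Of 27 tested, 26 were positive and 12 had an unadjusted p under 0.05, all higher, with 0 past the adjusted threshold and a median of 0.53. Des, the muscle intermediate filament desmin, lay at 314 to 715 FPKM (median 531) in the AngII libraries, 333 to 543 (median 472) in the AngII+ETH libraries and 147 to 442 (median 249) in the saline libraries. Saline replicate 5, at 442 FPKM, was the only saline library within the infused range, and the log2 fold change was 0.95 (SE 0.206, adjusted p = 0.141 by limma). Nrap, which anchors actin filaments in growing myofibrils, had 0.86 (SE 0.213), with 0.82 (SE 0.246) in AngII and 0.90 (SE 0.246) in AngII+ETH. With the adipocyte covariate Des had 0.54 (adjusted p = 0.666) and Nrap 0.40 (adjusted p = 0.705). The median of the list was 0.53 in AngII and 0.55 in AngII+ETH. Ventricular markers moved with the list, and their part in its difference was not tested apart from the covariate. Of 10 tested, 9 were positive with a median of 0.89, and their summed levels were 107 to 11342 FPKM in AngII, 2201 to 12709.9 FPKM in AngII+ETH and 87.8 to 11314 FPKM in saline. Atrial markers had a median of -0.39, with 10 of 12 negative and summed levels of 585 to 58170.1 FPKM in AngII, 455 to 36196 FPKM in AngII+ETH and 387 to 25939 FPKM in saline. With chamber and adipocyte covariates the Z-disc median was 0.34 with 22 of 27 positive, and the ventricular marker median was 0.06. The ventricular markers Myl2, Myl3 and Irx4 enter the chamber covariate, so the fall of the marker median is in part built in.

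All 10 ankyrin repeat and Xin genes tested, which sense stretch at the titin filament and the intercalated disc, were positive, 4 with an unadjusted p under 0.05, and the median was 0.70. Besides Ankrd23 and Nrap these were Xirp2 and Xirp1, the actin-binding Xin repeat genes. Xirp2 lay at 13 to 60.8 FPKM (median 18.6) in the AngII libraries, 12.9 to 42.7 (median 19.3) in the AngII+ETH libraries and 3.14 to 15.7 (median 9.42) in the saline libraries. Its log2 fold change was 1.34 (SE 0.375, adjusted p = 0.277 by limma), nearly equal in both infused groups, with 1.35 (SE 0.433) in AngII and 1.33 (SE 0.433) in AngII+ETH. Xirp1 had 0.88 (SE 0.356, adjusted p = 0.39 by limma), and without every library in doubt 0.30 (adjusted p = 0.674). With covariates for chamber and adipocyte markers the list median was 0.51, with 9 of 10 positive.

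The hypertrophy and fetal gene list had 9 of 19 genes with an unadjusted p under 0.05, all higher, 15 positive, and a median of 0.71 (0.64 in AngII and 0.71 in AngII+ETH). Its members with the smallest p were Ankrd23 and Hspb7, which are also counted in other lists. Nppb, the B-type natriuretic peptide and a clinical marker of wall stress, lay at 142 to 2004 FPKM (median 455) in the AngII libraries, 126 to 1482 (median 318) in the AngII+ETH libraries and 74.7 to 220.1 (median 104) in the saline libraries. AngII replicate 2 and AngII+ETH replicates 1 and 4 lay within the saline range, and the log2 fold change was 1.75 (SE 0.539, adjusted p = 0.292 by limma), with 1.90 (SE 0.622) in AngII and 1.60 (SE 0.622) in AngII+ETH. Acta1, skeletal actin, varied widely, at 17.9 to 1283 FPKM (median 80.5) in the AngII libraries, 77.2 to 612 (median 344) in the AngII+ETH libraries and 1.15 to 216 (median 28.8) in the saline libraries. The pooled difference for Acta1 was 3.11 (SE 0.919, adjusted p = 0.29 by limma). Rcan1, which calcineurin signalling induces and which restrains calcineurin in turn, lay at 39 to 88.4 FPKM (median 48.1) in the AngII libraries, 47 to 85.6 (median 49.1) in the AngII+ETH libraries and 25.3 to 42 (median 34.2) in the saline libraries. Rcan1 had 0.68 (SE 0.181, adjusted p = 0.266 by limma), and Mybpc2, the fast skeletal myosin-binding protein C, 0.86 (SE 0.23, adjusted p = 0.268 by limma). The median was 0.67 without Saline replicates 4 and 6 and 0.78 with both covariates, with 17 of 19 positive in each. Without the 5 libraries poor in Myl7 or Myl2 it was 0.53, with 14 of 19 positive, and with the adipocyte covariate Acta1 was 1.30 (adjusted p = 0.765).

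Nppa, the atrial natriuretic peptide gene and a fetal gene of the ventricle, overlapped widely between groups. It lay at 331 to 44819 FPKM (median 8422) in the AngII libraries, 236 to 25672 (median 8993) in the AngII+ETH libraries and 157 to 14115 (median 10029) in the saline libraries, with the lowest value of each group in the library where Myl7 was listed at 0, and its pooled log2 fold change was 0.09 (SE 1.15, adjusted p = 0.982 by limma). The myosin heavy chains Myh6 and Myh7, which adult and fetal ventricles use, had 0.64 (SE 0.507) and 0.11 (SE 0.447), and the calcium pump gene Atp2a2 0.06 (SE 0.162), with adjusted p of 0.667, 0.935 and 0.902. Ankrd1 had 0.92 (SE 0.574) and the connective tissue growth factor gene Ccn2 0.99 (SE 0.73), with adjusted p of 0.575 and 0.642. The direction of Nppa, Myh7 and Atp2a2 turned under other settings.

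The matrix genes Col1a1, Col3a1 and Postn had negative values in AngII and positive ones in AngII+ETH, none past the threshold. Col1a1, the collagen I chain, lay at 27.8 to 106 FPKM (median 45.6) in the AngII libraries, 27.1 to 167 (median 114) in the AngII+ETH libraries and 24.9 to 120.2 (median 69.7) in the saline libraries, and the groups overlapped throughout. These 3 genes had pooled log2 fold changes of 0.04 (SE 0.41), -0.22 (SE 0.387) and -0.12 (SE 0.604), with adjusted p of 0.978, 0.854 and 0.949.  Col1a1 was -0.34 (SE 0.474) in AngII and 0.42 (SE 0.474) in AngII+ETH, and Postn, the matricellular protein periostin, was -0.62 (SE 0.698) in AngII and 0.37 (SE 0.698) in AngII+ETH. The difference between the infused groups was 0.77 (95% interval -0.23 to 1.76) for Col1a1 and 1.00 (95% interval -0.47 to 2.46) for Postn, whose intervals include 0. Of 18 fibrillar and network collagens, 2 had an unadjusted p under 0.05, both higher. That share of 11.1% equals the background of 11.2% over all genes tested. Both genes belong to basement membrane collagen IV and were named after their values were seen. Col4a2 lay at 46 to 118 FPKM (median 61.7) in the AngII libraries, 65.7 to 104 (median 75.4) in the AngII+ETH libraries and 33.8 to 58.3 (median 48) in the saline libraries and had 0.59 (SE 0.173, adjusted p = 0.29 by limma), and Col4a1 had 0.51 (SE 0.189, adjusted p = 0.341 by limma). The collagen median was 0.06, and 0.41 without Saline replicates 4 and 6. Matricellular genes had a median of 0.34, -0.03 in AngII and 0.58 in AngII+ETH, with 2 of 26 at an unadjusted p under 0.05. That median was 0.70 without Saline replicates 4 and 6 and 0.88 with both covariates, with 25 of 26 positive in each, and 0.22 without the 5 libraries poor in Myl7 or Myl2. Tgfb1, Timp1 and the monocyte chemokine gene Ccl2 had 0.21 (SE 0.133), 0.40 (SE 0.455) and 0.31 (SE 0.236), none past the threshold, and Il6 was not among the genes tested.

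Caveolae and Popeye domain genes, which shape membrane pits and tether signalling proteins in myocytes, had 6 of 12 members with an unadjusted p under 0.05, all higher, and a median of 0.21. Cav3, the muscle caveolin, lay at 35 to 64.9 FPKM (median 48.4) in the AngII libraries, 45.4 to 50.6 (median 48.1) in the AngII+ETH libraries and 19.7 to 43 (median 28.5) in the saline libraries. Saline replicate 5 was again the only saline library within the infused range, and values against saline were 0.72 (SE 0.158) in AngII and 0.73 (SE 0.158) in AngII+ETH. Cavin4, its muscle-restricted coat partner, lay at 22.5 to 45.5 FPKM (median 36.2) in the AngII libraries, 29.7 to 43.1 (median 35.4) in the AngII+ETH libraries and 5.16 to 36.1 (median 16.5) in the saline libraries and had 1.23 (SE 0.28, adjusted p = 0.184 by limma). Pacsin3, an F-BAR protein of muscle caveolae, had 1.34 (SE 0.408, adjusted p = 0.291 by limma). With the adipocyte covariate Cav3 had 0.47 (adjusted p = 0.612) and Cavin4 0.55 (adjusted p = 0.705). The 4 negative members were Cav1, Cav2, Cavin2 and Ehd2, which endothelium and fat also use, at -0.21 to -0.10. Without Saline replicates 4 and 6 all 12 were positive, with a median of 0.27.

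Heat shock proteins and co-chaperones had 9 of 25 genes with an unadjusted p under 0.05 that were higher and 1 that was lower, with 20 positive and a median of 0.19. The median was 0.34 in AngII and 0.075 in AngII+ETH, a gap that was not tested. Of the higher ones, 5 encode small heat shock proteins, which guard filaments in muscle (Hspb7, Hspb1, Cryab, Hspb8 and Hspb6). Hspb7 lay at 456 to 749 FPKM (median 669.9) in the AngII libraries, 567 to 706 (median 600.4) in the AngII+ETH libraries and 172 to 565 (median 341) in the saline libraries. Saline replicate 5, at 565 FPKM, was the only saline library within the infused range, and values against saline were 0.97 (SE 0.222) in AngII and 0.97 (SE 0.222) in AngII+ETH. Hspb1 lay at 197 to 759 FPKM (median 273) in the AngII libraries, 173 to 423 (median 289.8) in the AngII+ETH libraries and 135 to 191 (median 158) in the saline libraries, with the highest value in AngII replicate 5, and had 0.87 (SE 0.242, adjusted p = 0.275 by limma). Bag3, the co-chaperone of Z-disc turnover, had 0.46 (SE 0.126, adjusted p = 0.275 by limma), and Dnajb5, a J-domain co-chaperone, 0.66 (SE 0.183, adjusted p = 0.275 by limma). With the adipocyte covariate Hspb7 had 0.55 (adjusted p = 0.642) and Bag3 0.19 (adjusted p = 0.732). The lower member was the mitochondrial chaperonin gene Hspd1, named after its values were seen, which lay at 6.48 to 43.7 FPKM (median 15.9) in the AngII libraries, 17 to 54.7 (median 31.4) in the AngII+ETH libraries and 24.6 to 82.5 (median 50.5) in the saline libraries and had -1.09 (SE 0.33, adjusted p = 0.29 by limma). The median was 0.18 with both covariates, with 23 of 25 positive, where 6751 of 11704 of all genes were positive.

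Muscle ubiquitin ligase, FoxO and autophagy genes had members on both sides, with 4 higher and 5 lower of 22 at an unadjusted p under 0.05 and a median of 0.02. Trim54, a titin-binding ligase of the MuRF family, lay at 109 to 175 FPKM (median 134) in the AngII libraries, 104 to 171 (median 115) in the AngII+ETH libraries and 54.5 to 130.0 (median 80.3) in the saline libraries and had 0.68 (SE 0.169, adjusted p = 0.238 by limma). Fbxo40, which targets insulin receptor substrate in muscle, had 0.84 (SE 0.249, adjusted p = 0.29 by limma), and Asb2, which targets filamins, 0.44 (SE 0.171, adjusted p = 0.364 by limma). Among saline libraries these 3 genes, like the ventricular markers Myl2, Myl3 and Irx4, were lowest in replicates 4 and 6. With the adipocyte covariate their log2 fold changes were 0.28 (adjusted p = 0.705) for Trim54, 0.20 (adjusted p = 0.798) for Fbxo40 and 0.02 (adjusted p = 0.979) for Asb2. Fbxo32, the atrophy ligase atrogin-1, lay at 7.78 to 14.3 FPKM (median 12) in the AngII libraries, 10.5 to 13.7 (median 11.5) in the AngII+ETH libraries and 13.3 to 16.9 (median 15.1) in the saline libraries. It had -0.36 (SE 0.105, adjusted p = 0.29 by limma), with -0.38 (SE 0.121) in AngII and -0.34 (SE 0.121) in AngII+ETH. The corticosteroid list had 5 higher and 3 lower of 20, with Angptl4 as its called member. Ddit4, an mTOR inhibitor induced by glucocorticoids, lay at 12.7 to 42.6 FPKM (median 28.6) in the AngII libraries, 13.4 to 46 (median 20) in the AngII+ETH libraries and 5.89 to 13.9 (median 12.2) in the saline libraries and had 1.07 (SE 0.255, adjusted p = 0.207 by limma). Cdkn1a, a cell cycle inhibitor, had 0.71 (SE 0.217, adjusted p = 0.291 by limma). Angptl4 and Pdk4 were on the other side in the same list, and its median was -0.08. The glucocorticoid-induced gene Tsc22d3, named after its values were seen, was 0.85 (SE 0.238) in AngII and 0.23 (SE 0.238) in AngII+ETH. AngII+ETH minus AngII was -0.63 (95% interval -1.13 to -0.13), an interval for which no adjustment over genes was made. The limma adjusted p of that difference was 0.99997.

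**Figure D4:**
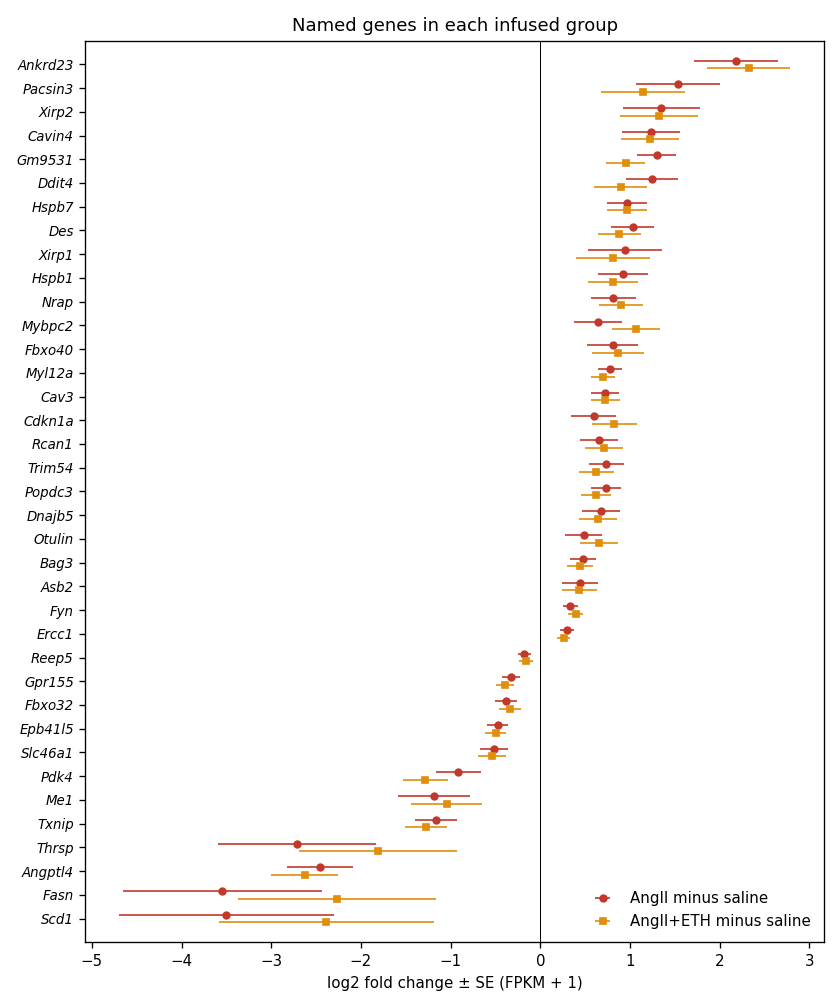
Log2 fold change ± SE of the genes chosen by rank or by list, for AngII minus saline (circles) and AngII+ETH minus saline (squares). The groups share the 6 saline libraries, so likeness between them is in part built in. The widest bars belong to the fatty acid synthesis genes Fasn and Scd1.

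The renin-angiotensin list, to which AngII itself belongs, had few genes with a small p. Of 13 renin-angiotensin genes tested, 0 were higher and 1 was lower at an unadjusted p under 0.05, with a median of -0.11. Among immune markers, all 7 neutrophil and mast cell genes tested were negative, 5 with an unadjusted p under 0.05, and the median was -0.83, or -0.30 with both covariates. The mast cell protease gene Tpsb2 lay at 0.272 to 2.38 FPKM (median 1.02) in the AngII libraries, 1.07 to 4.88 (median 2.56) in the AngII+ETH libraries and 1.82 to 9.18 (median 3.91) in the saline libraries. Its values were -1.28 (SE 0.342) in AngII and -0.52 (SE 0.342) in AngII+ETH, and Cpa3, a mast cell carboxypeptidase, had -0.82 (SE 0.268, adjusted p = 0.304 by limma). Neutrophil and mast cell marker sums were low, at 3.56 to 11.6 FPKM in AngII, 7.24 to 21.1 FPKM in AngII+ETH and 9.43 to 43 FPKM in saline, and 7 of the 15 listed markers had no transcript in the table. Tpsb2 and Cpa3 were named after their values were seen. Both were highest in Saline replicates 6 and 4, which had the most Adipoq. Tpsb2 was 9.18 and 5.53 FPKM there, and Cpa3 5.31 and 3.11 FPKM. Circadian clock genes had 1 higher and 5 lower of 17, and Krüppel-like factors had 2 higher and 2 lower of 11. Klf10, a factor that fasting and the clock regulate and which was named after its values were seen, lay at 3.68 to 10.9 FPKM (median 4.96) in the AngII libraries, 3.76 to 6.67 (median 5.49) in the AngII+ETH libraries and 6.11 to 14.2 (median 11.8) in the saline libraries. Its log2 fold change was -0.89 (SE 0.183, adjusted p = 0.123 by limma), and it passed with both covariates.

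**Figure D5:**
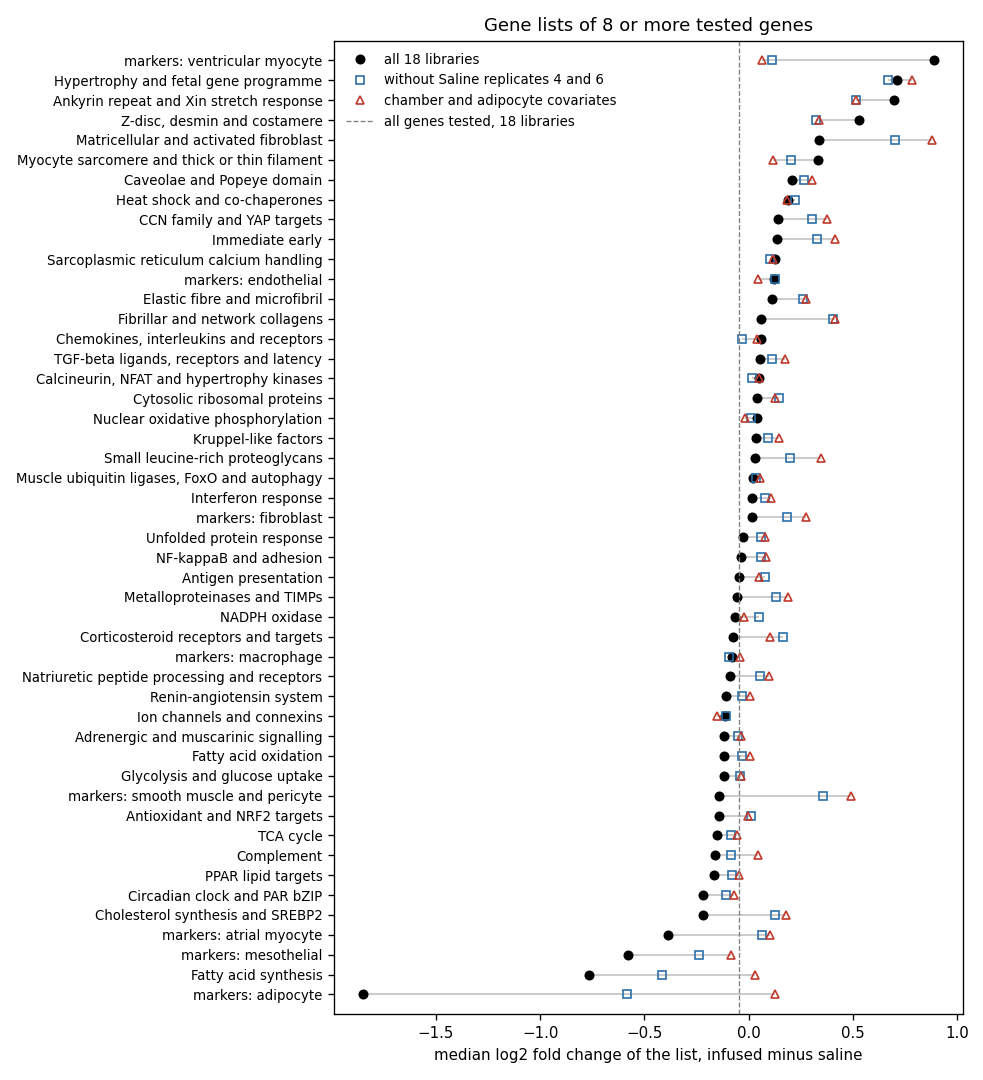
Median log2 fold change (infused minus saline) of each gene list with 8 or more tested genes, over all 18 libraries (circles), without Saline replicates 4 and 6 (squares) and with chamber and adipocyte marker covariates (triangles). The dashed line is the median of all genes, -0.05. The adipocyte, fatty acid synthesis and ventricular lists shift most between settings, while the hypertrophy list lies at 0.67 to 0.78 in these 3 settings. The covariates are built from adipocyte and chamber markers, and the saline libraries were left out by their Adipoq. The shifts of the marker lists are therefore in part built in.

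At the level of single transcripts, 17132 Ensembl transcripts were tested together with 6214 assembled ones. Among Ensembl transcripts 1 was higher and 2 were lower. The lower ones were the transcript of Angptl4 (-2.54) and a transcript of Ucp3, ENSMUST00000128044, which lay at 0 to 1.17 FPKM in AngII, 0 to 1.55 FPKM in AngII+ETH and 1.73 to 6.75 FPKM in saline. It was listed at 0 in 4 AngII and 2 AngII+ETH libraries, and its log2 fold change was -1.67 (SE 0.264, adjusted p = 0.0393 by limma). The higher one was a transcript of Acvrl1, ENSMUST00000000542, the endothelial BMP receptor ALK1, at 1.42 to 5.15 FPKM in AngII, 2.61 to 9.95 FPKM in AngII+ETH and 0 to 2.29 FPKM in saline. Saline replicate 3 alone reached into the infused range, and the log2 fold change was 1.91 (SE 0.28, limma adjusted p = 0.0254). How the authors divided reads among the transcripts of a gene bears on both.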

How the data were processed

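RNA-seq libraries of mouse heart were prepared from rRNA-depleted total RNA, per the labels' protocols. The authors deposited 1 value per transcript, taken here as FPKM; no file names the unit, and it was inferred from the values. The submitters' processing notes name limma, and the sources used here name no aligner, assembler or build. Without counts, no count test was run.

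The saline and AngII files list 30883 transcripts and the AngII+ETH files 30036, of which 28886 are common. Assembled transcripts without a gene name (8239, holding 10.4 to 15.7% of the common sum) were left out of gene sums. GENCODE M21 gave gene names to 20480 of the 20647 Ensembl transcripts, and sums were made for 12913 genes. For 1171 genes a transcript is in 1 list only. The correlation of replicates across transcripts was 0.799 to 0.892.

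Genes entered the test when any group averaged at least 1 FPKM (11704 genes). The test was limma 3.58.1 (R 4.3.3, intensity trend) on log2(FPKM + 1), in a fit of 3 group means over all 18 libraries. The contrast was the mean of both infused groups minus saline, with Benjamini-Hochberg adjustment over all genes and a threshold of 0.05. Marker levels were compared with exact permutation tests over all 18564 assignments. Tables and figures used Python 3.11.15, pandas 2.3.3 and matplotlib 3.10.9. The test was checked on simulated data.

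Members, lists and alternatives were chosen with earlier results of these data known. Named genes were those past the threshold, those whose 12 infused libraries did not overlap the 6 saline libraries (up to 12 and 8 per direction, by smallest p), 15 cardiac genes whatever their result, up to 4 members by smallest p of the 8 lists (markers aside, 8 or more tested genes) with the largest share of unadjusted p under 0.05, and the genes of the marker levels. Other genes, such as Dock6, Ucp3, Col4a2 and Klf10, were named after their values were seen. Replicates were numbered in accession order. Alternatives covered scaling, pseudocount, filter, trend, weights, covariates, the transcripts used and each library left out.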

Additional observations from a re-analysis of the deposited data

Results flagged for a closer look

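Within groups of 6 libraries, the named genes were searched for a highest or lowest library far from the rest, by the gap to its nearest neighbour divided by the group's range on the log2(FPKM + 1) scale, against a critical value of 0.625. Of 192 groups of values searched, 23 were past it, while chance alone gives about 1 in 20. Most belong to the libraries that lack markers of a chamber. The genes searched include Myl7 and Myl2, by which those libraries were picked, and other chamber markers, so this is in part built in. Genes that vary together are also not separate draws, so the 1 in 20 is only a rough guide.

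AngII replicate 3 was lowest in its group for Myl7 (0.963), Myl4 (0.819), Sln (0.804) and Nppa (0.626). AngII+ETH replicate 4 was lowest for Myl7 (0.767), Myl4 (0.71) and Sln (0.677), which encode a regulatory and an alkali light chain of atrial myosin and the calcium pump inhibitor sarcolipin. Saline replicate 5 was lowest for Myl7 (0.918), Myl4 (0.891), Sln (0.879) and Nppa (0.767). AngII replicate 5 was lowest for the ventricular genes Myl2 (0.94), Myl3 (0.895) and Irx4 (0.783) and for Reep5 (0.647). It was highest for Ccn2 (0.722, 1554 FPKM against 61.0 to 151 FPKM in the other AngII libraries), Hspb1 (0.661), Otulin (0.663) and Tgfb1 (0.646).

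The remaining ratios were 0.978 for Cidec in AngII, where replicate 4 had 2.15 FPKM and the others at most 0.0252 FPKM, 0.675 for Ccl2 in AngII+ETH (replicate 2, 4.21 FPKM), 0.671 for Reep5 in saline (replicate 2, 115 FPKM) and 0.713 for Ddit4 in saline (replicate 2, 5.89 FPKM). No explanation of these values was tested.

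Among the 6214 assembled transcripts without a gene name that were tested, which the gene sums leave out, 1 was higher in the infused libraries and 0 were lower. This transcript, MERGE.18094.1, lay at 1.59 to 4.07 FPKM (median 2.99) in AngII, 0.738 to 2.75 FPKM (median 2.34) in AngII+ETH and 0 to 1.39 FPKM (median 0.0017) in saline. Its log2 fold change was 1.47 (SE 0.219, limma adjusted p = 0.0254). The files pair it with no gene.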

How the results depend on the processing

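The count of 4 genes past the threshold became 2 after quantile normalization, with a pseudocount of 0.1, with both marker covariates (Klf10 and Txnip) and without Saline replicates 4 and 6 (Angptl4 and Cwf19l1). It became 8 with array quality weights, 7 at a threshold of 0.1, and 0 both with the adipocyte covariate (810 at an unadjusted p under 0.05) and over genes with no transcript in 1 list only (1152). Angptl4 and Myl12a each have a transcript in 1 list only, so they were left out of that last setting and not tested in it. It was 3 without the 5 libraries poor in Myl7 or Myl2 (under 10 FPKM), none of them among the 4 (Ankrd23, Klf10 and Plcd3), and 6 without every library in doubt, an alternative chosen after seeing the data. Leaving out 1 library gave 1 to 46, with 46 without Saline replicate 5, 2 without AngII replicate 1, AngII+ETH replicate 1 or Saline replicate 2, and 1 without AngII replicate 3, 4 or 6, AngII+ETH replicate 3, 4, 5 or 6, or Saline replicate 1, 4 or 6. Angptl4 passed in all 18 of these, Myl12a in 6, Txnip in 5 and Gm9531 in 2.

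The 1310 genes with an unadjusted p under 0.05 became 820 with a mean of 5 FPKM in a group, 810 with the adipocyte covariate, 758 with both covariates, 774 without Saline replicates 4 and 6, and 840 to 2331 with 1 library left out. The 10 genes without overlap became 4 with median-of-ratios scaling, 6 after quantile normalization, 152 without the 5 libraries, 32 without Saline replicates 4 and 6, 284 without every library in doubt, and 10 to 79 with 1 library left out (79 without Saline replicate 5). Fewer libraries make such separation easier. With 1 library left out, the chamber marker difference was -4.35 to -1.18 log2 units and the adipocyte one -3.01 to -1.67. Leaving out a marker changed neither call.

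Log2 fold changes of genes that did not pass turned sign as follows. After quantile normalization: Nppa -0.14 and Atp2a2 -0.073. With array quality weights: Nppa -0.20, Myh7 -0.22 and Atp2a2 -0.023. With the chamber covariate: Myh7 -0.085, Col3a1 0.12, Postn 0.28, Atp2a2 -0.0074, Myl7 1.15, Myl4 1.69 and Sln 1.39. With the adipocyte covariate: Myh7 -0.38, Col3a1 0.53, Postn 1.03, Atp2a2 -0.26, Fasn 0.021, Scd1 0.22, Myl7 2.76, Myl4 3.29, Sln 2.82, Myl2 -1.03, Myl3 -0.045, Irx4 -0.14, Adipoq 0.20 and Plin1 0.032. With both covariates: Myh7 -0.22, Col3a1 0.22, Postn 0.77, Atp2a2 -0.25, Thrsp 0.11, Scd1 0.096, Myl7 0.73, Myl4 1.39, Sln 1.16, Myl2 -0.30, Adipoq 0.13 and Plin1 0.12. Leaving out the 5 libraries poor in Myl7 or Myl2: Nppa -0.22 and Atp2a2 -0.025. Without Saline replicates 4 and 6: Myh7 -0.41, Col3a1 0.15, Postn 0.46, Ccl2 -0.046, Atp2a2 -0.22, Myl7 0.29, Myl4 0.78, Sln 0.59 and Myl2 -0.45. Without every library in doubt: Nppa -0.16, Myh7 -0.51, Col3a1 0.012, Postn 0.14, Ccl2 -0.13 and Atp2a2 -0.21. With 1 library left out, the ranges that cross 0 were Nppa -0.90 to 0.53, Myh7 -0.25 to 0.30, Col1a1 -0.24 to 0.21, Postn -0.44 to 0.17, Atp2a2 -0.065 to 0.15, Myl7 -2.71 to 0.097, Myl4 -1.89 to 0.67 and Sln -1.71 to 0.49. Adipoq and Plin1 enter the adipocyte covariate, and Myl7, Myl4, Sln, Myl2, Myl3 and Irx4 enter the chamber covariate. Turns of these genes under the covariate they enter are in part built in. The cause of the other changes was not tested. No gene past the threshold turned sign under any alternative.

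No paired analysis was possible because the labels carry no replicate numbers shared between groups. The precision is limited by 6 saline libraries, of which 2 held much adipose signal and 2 lacked markers of a chamber, and by an unknown depth. The 2 transcript lists differ between AngII+ETH and the other groups. Leaving out the genes this touches, Angptl4 and Myl12a among them, ended the calls of Txnip and Gm9531 at the same values, with fewer genes tested.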

Other observations

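Other genes with a small unadjusted p, all named after their values were seen and none past the threshold, were those of excitability and signalling. Kcna5, the potassium channel of the ultrarapid repolarizing current, lay at 6.04 to 13.4 FPKM (median 11.3) in the AngII libraries, 7.07 to 18.8 (median 9.98) in the AngII+ETH libraries and 3.29 to 7.42 (median 4.58) in the saline libraries and differed by 0.93 (SE 0.203, adjusted p = 0.155 by limma) on the log2 scale. Rgs2, which shortens signalling from AngII receptors and other Gq-coupled receptors, lay at 3.18 to 23.4 FPKM (median 8.71) in the AngII libraries, 5.52 to 11.8 (median 6.71) in the AngII+ETH libraries and 10.7 to 23 (median 19.9) in the saline libraries and had -0.99 (SE 0.28, adjusted p = 0.29 by limma). Homer2, a scaffold of calcium signalling, lay at 7.16 to 25.2 FPKM (median 13.4) in the AngII libraries, 11.7 to 20.2 (median 15.9) in the AngII+ETH libraries and 3.17 to 9.44 (median 7.35) in the saline libraries and had 1.06 (SE 0.217, adjusted p = 0.123 by limma). Slc4a3, the anion exchanger of cardiac myocytes, lay at 7.83 to 15.4 FPKM (median 11.8) in the AngII libraries, 4.72 to 20 (median 6.64) in the AngII+ETH libraries and 0.415 to 10.1 (median 1.1) in the saline libraries and had 1.87 (SE 0.39, adjusted p = 0.129 by limma), and is on the ventricular marker list.

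Sarcomere genes had 7 of 25 members with an unadjusted p under 0.05, all higher, and a median of 0.33, or 0.12 with both covariates. Lmod2, which lengthens thin filaments, had 0.55 (SE 0.198, adjusted p = 0.336 by limma), and the troponin genes Tnnt2 and Tnnc1 had 0.93 (SE 0.382) and 0.64 (SE 0.27). Glycolysis genes had 1 higher and 4 lower of 24. Eno1, enolase, lay at 24.3 to 48.8 FPKM (median 35.6) in the AngII libraries, 26 to 52 (median 49.8) in the AngII+ETH libraries and 33.9 to 673 (median 70.5) in the saline libraries. Its 2 highest values, 673 and 317 FPKM, were those of Saline replicates 6 and 4, which had the most Adipoq, and Saline replicates 1 and 5 lay within the infused range. Its log2 fold change was -1.39 (SE 0.49, adjusted p = 0.328 by limma). The PAR bZIP factor Dbp, a clock output, was -0.13 (SE 0.256) in AngII and -1.06 (SE 0.256) in AngII+ETH. AngII+ETH minus AngII was -0.93 (95% interval -1.47 to -0.39, unadjusted over genes), with a limma adjusted p of 0.99997. Dbp was named after its values were seen.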
